A study of Homo sapiens with 6 samples.

Results

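The bridge-like lipid transfer proteins examined here are VPS13A, VPS13B, VPS13C, VPS13D, KIAA1109, ATG2A and ATG2B. They were found by symbol in the authors' deposited table, and all 7 were among its 15706 genes. The family was chosen from this same comparison of knockout with control libraries, with its fold changes in view: VPS13A and KIAA1109 stood at places 6 and 8 of the authors' deposited table when its genes were ordered by p-value, and VPS13D at place 12039. The fold changes of the 7 genes are therefore given as a description, without a test, and nothing is supported with them. All 7 also passed the filter on low values, a mean of at least 10 normalized counts, which left 14618 genes.

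RNA was measured in bulk in MDA-MB-231, an established human line of triple-negative breast cancer. The controls, labelled sgNT, are 3 libraries of wild-type genotype made with a guide RNA that has no target, and the other 3 libraries, labelled sgMLL3, carry a knockout of MLL3 (approved symbol KMT2C), a methyltransferase that marks enhancers on histone H3 lysine 4. All 6 were cultured in DMEM with fetal bovine serum and received no treatment. The libraries of each group are numbered as biological replicates 1 to 3, with no word on separate cultures or on single clones against pools, so errors and p-values below measure the spread between these libraries, which may be technical. In a bulk library, fewer expressing cells and less RNA per cell cannot be told apart.

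Bridge-like lipid transfer proteins are long rods with a hydrophobic groove along their length. They span the gap between a pair of membranes at contact sites, most often with one end on the endoplasmic reticulum, and let phospholipids flow in bulk along the groove. Each member serves other organelles: VPS13A reaches mitochondria, lipid droplets and the plasma membrane, VPS13B the Golgi complex, VPS13C late endosomes and lysosomes, VPS13D mitochondria and peroxisomes. KIAA1109, also called BLTP1, lies at contacts with the plasma membrane, and ATG2A and ATG2B feed lipid into the growing autophagosome membrane. Inherited loss of VPS13A causes chorea-acanthocytosis, and loss of VPS13B causes Cohen syndrome.

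KMT2C, the targeted gene, was read at 1367, 1379 and 1255 normalized counts in the control libraries and at 1519, 1660 and 1339 in the knockout libraries (log2 fold change 0.17, SE 0.10, limma adjusted p = 0.20). Its transcript was thus not lower under the knockout label, and its level gives no check of that label, since the edited site is not given. Reads recovered over the 15706 genes numbered 41240265 to 49514464 per library. All 6 markers listed for the line were read in every library. Their summed levels were 157540 to 157865 normalized counts in the controls and 141316 to 147841 in the knockout libraries. VIM, AXL and FOSL1 were lower in every knockout library than in every control library. CAV1 was higher (21611 to 26200 in controls and 27041 to 31045 in knockouts), and the groups overlapped for CD44 and EGFR. Like the sum for the line, that of leukocyte markers was lower in every knockout library than in every control library. It was 325 to 362 in controls and 222 to 273 in knockouts (3 of 4 measured). No leukocyte marker was apart by itself, and PTPRC, most of the sum, overlapped at 258 to 302 and 197 to 259. Every knockout library was also lower for fibroblasts (PDGFRB alone of 4, 684 to 701 and 457 to 518) and for ERBB2 (5612 to 6016 and 4581 to 5282). The sum of luminal epithelial markers (4 of 5, 27274 to 29759 and 21508 to 25195) was mostly KRT19. Of the others, EPCAM was higher in every knockout library (765 to 796 and 861 to 999), GATA3 lower (572 to 674 and 426 to 505), and CDH1 at 2.11 to 7.52 with overlapping groups. Those of endothelium overlapped (2 of 3, 69.8 to 100.5 and 48.7 to 91.8). The part of these markers in the results was not tested.

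Stretches ahead of the start sites of members with different levels of change are shown first, so that the letters can be compared. They come from RefSeq on GRCh38.p14 and run 5′ to 3′ on the strand of the gene, over at most the 250 bases before the start and up to the first base of any exon annotated in GENCODE 29. KIAA1109 had the highest fold change of the members (chr4:122152081-122152330, plus strand), VPS13D was near 0 (chr1:12229780-12230029, plus strand) and ATG2A was lower in the knockout libraries (chr11:64917249-64917459, minus strand). Capitals mark the GC box (GGGCGG or its complement on the other strand) and the CCAAT box.
KIAA1109: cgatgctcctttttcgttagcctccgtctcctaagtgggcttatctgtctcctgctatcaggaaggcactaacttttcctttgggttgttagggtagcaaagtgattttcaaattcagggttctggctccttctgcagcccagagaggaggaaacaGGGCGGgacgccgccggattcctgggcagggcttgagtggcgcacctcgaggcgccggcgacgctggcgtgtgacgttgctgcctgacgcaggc
VPS13D: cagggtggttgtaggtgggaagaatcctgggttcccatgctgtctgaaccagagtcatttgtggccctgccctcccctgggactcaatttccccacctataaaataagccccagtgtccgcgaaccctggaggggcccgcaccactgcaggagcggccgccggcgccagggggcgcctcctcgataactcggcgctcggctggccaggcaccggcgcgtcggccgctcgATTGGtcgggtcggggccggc
ATG2A: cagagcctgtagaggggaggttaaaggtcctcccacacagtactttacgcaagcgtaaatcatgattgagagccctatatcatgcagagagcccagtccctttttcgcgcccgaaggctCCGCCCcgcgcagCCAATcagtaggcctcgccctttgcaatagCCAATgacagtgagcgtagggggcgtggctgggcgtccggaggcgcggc

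In the table of RefSeq windows used here, 6 of the 7 members were matched, 7 windows in all since KIAA1109 has a pair of start sites. Each search covered the full 250 bases before the start, bases in annotated exons included. The windows of VPS13C and ATG2B had 0 bases ahead of the first exon base, that of VPS13A had 69 and that of ATG2A 211. Searched on both strands, a GC box was in 4 of the 7 windows and in 42.6% of all 35116 windows, and a CCAAT box in 2 of the 7 and in 32% of all. The E-box CACGTG, the core of the element bound by the lysosomal regulator TFEB, was in none of the 7 windows and in 6.34% of all. The ETS core CCGGAA was in 1, that of ATG2B, and in 14.5% of all, and the NRF1 core GCATGCGC in none and in 2.63% of all. These are matches of letters and name no binding site.

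Of the 7 genes, VPS13A and KIAA1109 lay about a factor of 2.0 higher in the knockout libraries, VPS13C, ATG2B and VPS13B between 1.51 and 1.70 times, VPS13D was level and ATG2A was lower. The groups did not overlap for 6 genes, 5 higher and 1 lower in the knockout libraries, where the same held for 23.9% and 22.4% of all genes tested. In limma, fitted to all genes on log2(value + 1) with p-values adjusted by Benjamini-Hochberg and called below 0.05, 5 members were called higher and 1 lower, against 18.9% and 14.4% of all genes. Since the members were picked on this contrast, nothing is read from these counts. The median log2 fold change of the 7 genes was 0.67, and that of all genes tested was -0.017.

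**Figure D1:**
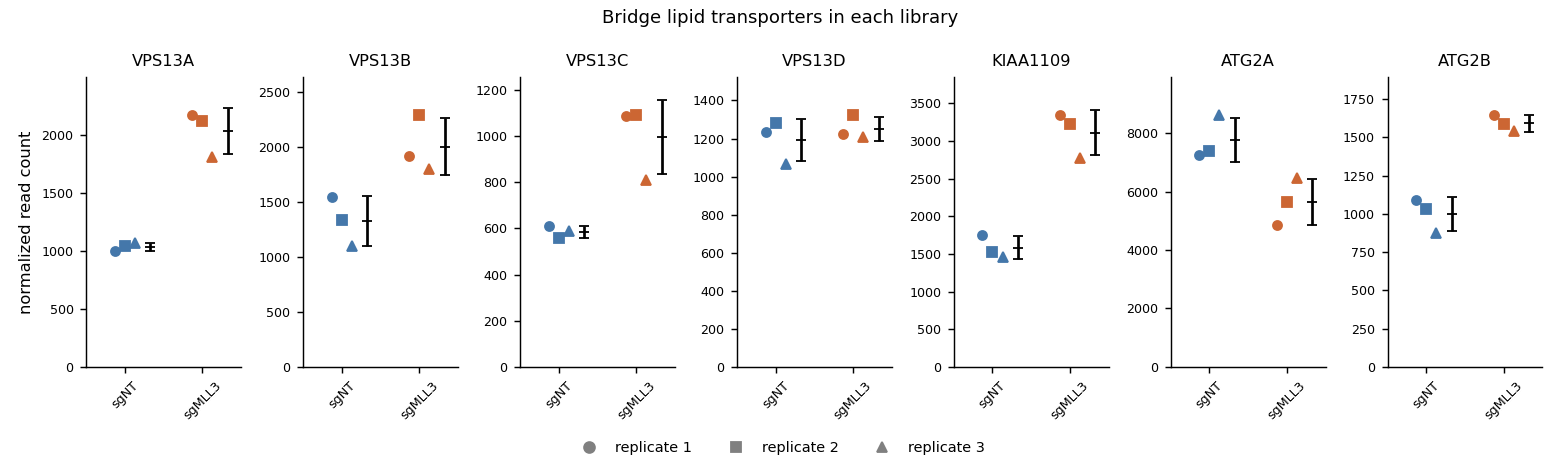
Normalized read count of each gene in each library, with an axis from 0 for each gene; colours are the groups, symbols the replicate numbers, and the bar beside each group is its mean ± SD (n = 3). The groups are apart for every gene but VPS13D, and ATG2A alone is lower in the sgMLL3 libraries.

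VPS13A (ENSG00000197969.14, chromosome 9, 77177353 to 77421541 on GRCh38, plus strand) was read at 999, 1040 and 1067 normalized counts in control replicates 1, 2 and 3. The knockout libraries held 2170, 2121 and 1804 counts, so the lowest of them lay well above the highest control. Its mean went from 1035 ± 34.6 to 2031 ± 199 counts (SD, n = 3 each), a log2 fold change of 0.97 (SE 0.099, limma). The control libraries differed by little more than counting error, with a coefficient of variation of 3.34% where the read number alone gives 3.16%. Across the knockout libraries it was 9.78%, against 2.16% from counting.

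VPS13C (ENSG00000129003.18, chromosome 15, 61852389 to 62060473, minus strand), the close relative of VPS13A at endosomes and lysosomes, was the least abundant member. It was read at 611, 556 and 588 counts in the control libraries and at 1086, 1092 and 811 in the knockout libraries. Knockout replicate 3 was set apart from the other 2, although it too lay above all controls. The means were 585 ± 27.4 and 996 ± 160 (SD, n = 3 each), with a log2 fold change of 0.75 (SE 0.12).

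VPS13D (ENSG00000048707.15, chromosome 1, 12230030 to 12512047, plus strand), needed for mitochondrial shape and clearance, gave 1232, 1280 and 1066 counts in the control libraries. Values of 1221, 1324 and 1207 in the knockout libraries fell within or just above that range. Its means were 1193 ± 112 and 1251 ± 63.7 counts (SD, n = 3 each) and its log2 fold change was 0.071 (SE 0.10). Within each library the ratio of VPS13A to VPS13D, both per kb of transcript, was 0.865 to 1.07 in the controls and 1.60 to 1.90 in the knockout libraries. Both genes were picked on this contrast, so nothing is read from the ratio.

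KIAA1109 (ENSG00000138688.15, chromosome 4, 122152333 to 122362758, plus strand) was read at 1754, 1525 and 1465 counts in the control libraries and 3347, 3220 and 2771 in the knockout libraries. Every knockout library lay far above the highest control. The means were 1581 ± 152 and 3112 ± 302 (SD, n = 3 each), and the log2 fold change was 0.98 (SE 0.099), the highest of the 7. This gene stood at place 168 of the 14618 tested genes by fold change, and VPS13A at place 175.

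ATG2A and ATG2B, paralogs that both extend the autophagosome membrane, stood on opposite sides. ATG2A (ENSG00000110046.13, chromosome 11, 64894546 to 64917248, minus strand) was read at 7265, 7400 and 8623 counts in the control libraries and 4851, 5643 and 6449 in the knockout libraries. Its means were 7763 ± 748 and 5648 ± 799 (SD, n = 3 each), a log2 fold change of -0.46 (SE 0.10). ATG2B (ENSG00000066739.12, chromosome 14, 96279202 to 96363870, minus strand) was read at 1092, 1034 and 878 counts in the controls and 1647, 1588 and 1539 in the knockout libraries. Its means were 1002 ± 111 and 1591 ± 54.1 (SD, n = 3 each), a log2 fold change of 0.67 (SE 0.10). The ratio of ATG2B to ATG2A per kb of transcript came to 0.0698, 0.0649 and 0.0473 in the 3 control libraries, and to 0.158, 0.131 and 0.111 in those of the knockout. That is a mean of 0.0607 ± 0.0119 against 0.133 ± 0.0235 (SD, n = 3 each), or 2.19 times, with no overlap. Since ATG2B was higher and ATG2A lower in every knockout library, this separation follows from the values above and adds no support.

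**Figure D2:**
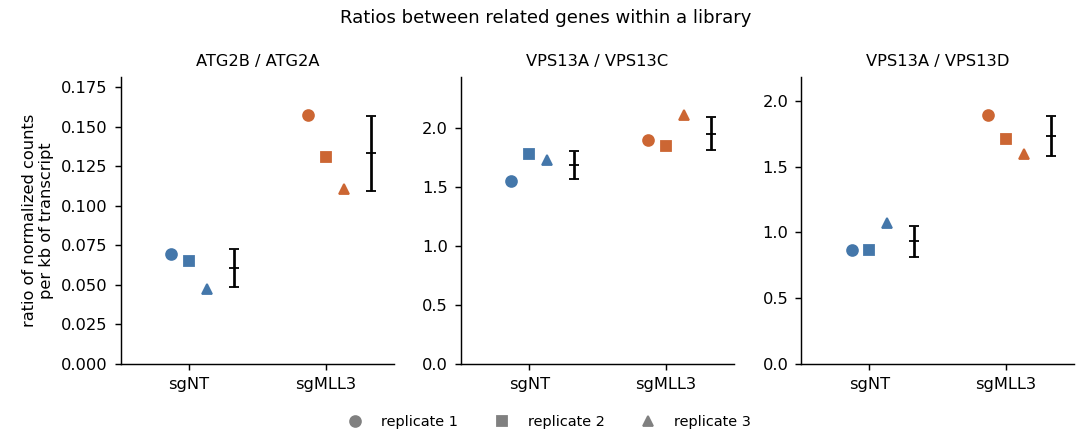
Ratio of the normalized counts per kb of transcript of related genes within each library, on axes from 0; colours are the groups, symbols the replicate numbers, and bars the mean ± SD (n = 3). ATG2B against ATG2A and VPS13A against VPS13D are apart between the groups by about a factor of 2, while VPS13A against VPS13C differs by 1.16 times. The genes were picked on this contrast, so the ratios are a description.

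VPS13B (ENSG00000132549.18, 99013266 to 99877580, plus strand), which keeps the Golgi complex intact, had the widest spread among the controls. Its values were 1545, 1335 and 1094 counts in the control libraries and 1919, 2290 and 1799 in the knockout libraries. The means were 1325 ± 225 and 2003 ± 256 (SD, n = 3 each), with a log2 fold change of 0.60 (SE 0.12). Its coefficient of variation among the controls was 17.0%, against 2.81% from counting. No promoter window was used for this gene.

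Per kb of the longest transcript, the 7 genes kept almost the same order in both groups. In the control libraries ATG2A was far ahead at 1221 ± 118 normalized counts per kb (SD, n = 3), followed by KIAA1109 at 99.5 ± 9.58, VPS13B at 94.0 ± 16.0, ATG2B at 73.2 ± 8.10, VPS13D at 72.9 ± 6.86, VPS13A at 67.6 ± 2.26 and VPS13C at 40.1 ± 1.88. From KIAA1109 down to VPS13A the ranges of neighbours in this order overlapped. ATG2A and VPS13C stood clear of theirs. In the knockout libraries ATG2A held 888 ± 126 counts per kb, KIAA1109 196 ± 19.0, VPS13B 142 ± 18.1, VPS13A 132.6 ± 12.96, ATG2B 116 ± 3.96, VPS13D 76.5 ± 3.89 and VPS13C 68.34 ± 11.002. There VPS13A had passed ATG2B and VPS13D, and the ranges overlapped between VPS13B and VPS13A, between VPS13A and ATG2B, and between VPS13D and VPS13C. By the merged exon length, VPS13B changed places with KIAA1109 in the controls and ATG2B with VPS13A in the knockout libraries. Summed over the 7 genes, the level was 14170 to 14783 normalized counts in the control libraries and 16240 to 17277 in the knockout libraries.

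Within the knockout group, replicate 3 held the lowest value of 6 of the 7 genes and the highest of ATG2A. Its median deviation from the group mean was -0.15 on the log2 scale over the 7 genes, against 0.050 and 0.067 for replicates 1 and 2. Among the controls, replicate 3 was likewise lowest for 4 genes and highest for ATG2A and VPS13A. The levels of these genes thus differed between replicates of 1 group as well, with ATG2A opposite to most of the others. The same was not counted over all genes, so this is not shown to be particular to the family.

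Base composition moved with the fold changes of all genes. The longest transcripts of 6 members, with 13684 to 16357 bases, were exceeded by only 0.431% to 1.14% of all tested genes, while that of ATG2A has 6357 bases. With all genes cut into 10 bins by GC content, VPS13A (37.0% GC) and VPS13C (37.1%) lay in the lowest bin, whose median log2 fold change was 0.44. KIAA1109 (41.3%) and VPS13B (43.0%) lay in a bin with a median of 0.27, ATG2B (44.2%) in one with 0.15, VPS13D (46.9%) in one with 0.017, and ATG2A (64.0%) in the highest bin, with -0.27. Each of the 7 lay farther from 0 than the median of its bin, on the same side, VPS13D only slightly. With splines of GC content and transcript length fitted per library and subtracted, which is called trend removal here, the log2 fold changes were 0.58 for KIAA1109 (SE 0.065), 0.47 for VPS13A (SE 0.078), 0.43 for ATG2B (SE 0.074), 0.29 for VPS13B (SE 0.092), 0.26 for VPS13C (SE 0.095), -0.052 for VPS13D (SE 0.073) and -0.26 for ATG2A (SE 0.054). After trend removal 3 of the 7 were called higher and 1 lower, where 4.08% and 5.95% of all genes were. Nothing is read from these counts either, since the members were picked on this contrast. The groups still did not overlap for the same 6 genes. For VPS13C, though, the gap between the highest control (9.549) and the lowest knockout library (9.553) was almost nothing on the log2 scale. The share of all genes without overlap was not counted after trend removal, so nothing is read from this either.

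**Figure D3:**
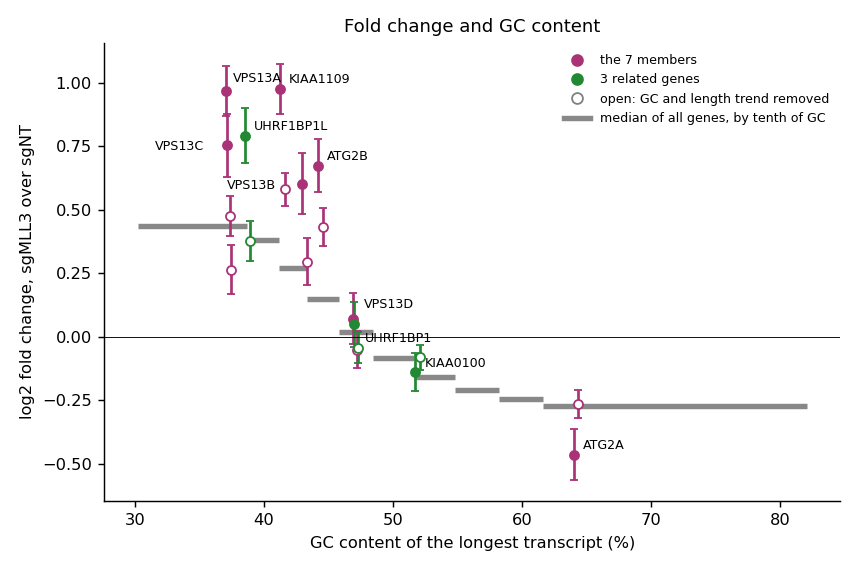
Log2 fold change of knockout over control against the GC content of the longest transcript for the 7 genes (purple) and 3 further bridge lipid transporters (green), with bars of 1 SE; filled points are the deposited values, open points, set slightly to the right, those after trend removal, and grey lines the median of all genes in each of 10 bins of GC content. The genes of low GC content stand above the grey lines and ATG2A below, and every open point lies nearer to 0 than its filled one.

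Some reads of these genes could belong to neighbours on the other strand, because no source used here gives the strand setting of the counting. The exons of ATG2B share 419 of 14778 bases with GSKIP, those of VPS13A 178 of 20196 with VPS13A-AS1, and those of VPS13C 192 of 19703 with AC009554.1. None of the other members shares exon bases with another gene in GENCODE 29.

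The genes whose levels followed the mean profile of the 4 VPS13 genes most closely over the 6 libraries were ITSN2, PRRC2C, DDHD1, MYCBP2 and PTPRK, with Pearson's r of 0.999, 0.995, 0.994, 0.994 and 0.994. ITSN2, an endocytic scaffold, was read at 1163, 1127 and 964 counts in the control libraries and 1525, 1695 and 1342 in the knockout libraries. DDHD1 encodes a phospholipase. The 2 groups stand apart in this profile, so r mostly follows the difference between them, and 716 of 12447 genes compared had an r of at least 0.95.

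Related genes were then taken from 9 lists by role, 157 symbols in all, none of them a member. Of 144 tested, 38 (26.4%) were called higher and 20 (13.9%) lower in limma, beside 18.9% and 14.4% of all genes tested, and their median log2 fold change was 0.0094. After trend removal the counts were 6 (4.17%) and 8 (5.56%), beside 4.08% and 5.95% of all genes, and the median was -0.020. The counts changed with single libraries left out: without knockout replicate 1 they were 21 and 2, 25 and 4 without knockout replicate 2, and 28 and 5 without control replicate 3. Without control replicate 2 the lower count was 7, and without control replicate 1 it was 38. Calls over all genes moved as well, from 4859 to 2143 without knockout replicate 1 and 2499 without knockout replicate 2. They were 3154, 3680 and 6168 without control replicates 3, 2 and 1. Adjusted p-values in the following are those of limma over all genes.

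The 3 other bridge lipid transporters differed among themselves. UHRF1BP1L, also called BLTP3B and found on endosomes, rose from 745 ± 69.6 to 1289 ± 103 normalized counts (SD, n = 3 each), by 0.79 on the log2 scale (SE 0.11, adjusted p = 8.2e-05 in limma). Its control libraries held 825, 699 and 711 counts and its knockout libraries 1357, 1339 and 1171, and after trend removal it stood at 0.38 (adjusted p = 0.013). That second call was kept in 2 of the 6 fits without 1 library (largest adjusted p = 0.087). Its paralog UHRF1BP1 was read at 2036 ± 40.1 and 2109 ± 161 counts (0.048, SE 0.090, adjusted p = 0.71). KIAA0100, also called BLTP2, was read at 13213 ± 718 and 11991 ± 406 counts (-0.14, SE 0.077, adjusted p = 0.17).

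Of 13 tested partners that anchor VPS13 or ATG2 proteins, 4 were higher and 1 lower (median 0.15). RHOT1, which encodes the mitochondrial GTPase Miro1, an anchor of VPS13D, rose from 567 ± 43.2 to 911 ± 78.2 counts (0.68, SE 0.11, limma adjusted p = 0.00036). Its paralog RHOT2 fell from 6174 ± 411 to 4961 ± 454 (-0.32, SE 0.087, adjusted p = 0.011). RAB6A, a Golgi GTPase bound by VPS13B, rose from 3678 ± 286 to 4910 ± 199 (0.42, SE 0.084, adjusted p = 0.0015). After trend removal RHOT1 alone of these passed (0.37, adjusted p = 0.018), a call kept in 3 of the 6 fits without 1 library and lost without control replicate 2 or knockout replicate 1 or 2 (largest adjusted p = 0.11). GABARAP was below the filter, with at most 11.5 counts.

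Lipid scramblases, which spread the delivered lipid over both leaflets, counted 3 higher and 0 lower of 10 tested (median 0.069). TMEM41B, a scramblase of the endoplasmic reticulum, rose from 1864 ± 111 to 2311 ± 240 counts (0.31, SE 0.097, limma adjusted p = 0.023), and ANO6, that of the plasma membrane, from 4280 ± 142 to 5246 ± 511 (0.29, SE 0.087, adjusted p = 0.018). After trend removal both stood just below 0 (-0.058 and -0.022, adjusted p = 0.69 and 0.85), and no member of this list passed.

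In the autophagy lists, 3 of 17 genes of initiation and phosphatidylinositol 3-phosphate were higher and 2 lower (median -0.050). RB1CC1, the scaffold of the ULK kinase complex, rose from 1011 ± 110 to 1501 ± 107 counts (0.57, SE 0.11, limma adjusted p = 0.00079) and PIK3C3, the lipid kinase VPS34, from 2467 ± 182 to 3470 ± 357 (0.49, adjusted p = 0.0011). The kinase ULK1 (-0.39, adjusted p = 0.020) and WIPI2 (-0.27, adjusted p = 0.014), which binds the lipid that PIK3C3 makes, fell, though the groups overlapped for ULK1. Of 17 tested genes of ATG8 conjugation 4 were higher and 3 lower (median -0.071), with ATG12 (0.47, adjusted p = 0.0019) and ATG4A (0.46, adjusted p = 0.021) higher and ATG7 (-0.28, adjusted p = 0.032) and MAP1LC3C (-1.05, adjusted p = 0.039) lower. MAP1LC3C was low throughout, at 25.9 to 62.8 counts in the controls and 18.0 to 24.8 in the knockout libraries. After trend removal none of these 8 named genes passed (adjusted p = 0.062 to 0.74).

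Autophagy receptors counted 7 higher and 2 lower of 14 tested (median 0.22). SEC62, a receptor for the endoplasmic reticulum, rose from 3314 ± 156 to 4985 ± 176 counts (0.59, SE 0.081, limma adjusted p = 8.3e-05) and BNIP3L, one for mitochondria, from 3451 ± 172 to 5016 ± 369 (0.54, SE 0.085, adjusted p = 0.00023). TOLLIP (-0.37, adjusted p = 0.0068) and FKBP8 (-0.25, adjusted p = 0.030) fell, FKBP8 with overlapping groups. After trend removal 2 were higher and 1 lower, none of these 4 among them.

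Shuttle proteins carry single lipids between membranes, unlike the bridges. Of 31 tested, 9 were higher and 3 lower (median 0.044). STARD4, a sterol carrier, rose from 1502 ± 226 to 2539 ± 335 counts (0.76, SE 0.12, limma adjusted p = 0.00018), and OSBPL8, which exchanges lipids at the plasma membrane, from 2675 ± 330 to 4042 ± 274 (0.60, SE 0.098, adjusted p = 0.00029). PITPNM3, placed in this list by its family name, fell from 4271 ± 480 to 2802 ± 212 (-0.60, SE 0.095, limma adjusted p = 0.00022). Whether the PITPNM3 protein itself carries lipid is not shown by these data. Its relative PITPNM2 fell from 2121 ± 177 to 1541 ± 135 (-0.46, SE 0.099, limma adjusted p = 0.0023). STARD4 (0.33), PITPNM3 (-0.43) and PITPNM2 (-0.27) also passed after trend removal (adjusted p = 0.045, 0.0020 and 0.018), and OSBPL8 stood at 0.14 (adjusted p = 0.23). Without 1 library the call after trend removal was kept in 6 of 6 fits for PITPNM3, 2 of 6 for STARD4 (largest adjusted p = 0.20) and 1 of 6 for PITPNM2 (largest adjusted p = 0.093).

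Proteins of lipid droplets counted 4 higher and 3 lower of 16 tested (median -0.10), with ACSL3 (0.57, limma adjusted p = 0.00018) and RAB18 (0.50, adjusted p = 0.0011) higher, and the coat protein PLIN3 (-0.27, adjusted p = 0.019) and the lipase PNPLA2 (-0.33, adjusted p = 0.029) lower, PNPLA2 with overlapping groups. None of this list passed after trend removal. Of 27 tested enzymes of phospholipid synthesis 4 were higher and 6 lower (median -0.13). LPIN1, a phosphatidate phosphatase, rose from 4585 ± 161 to 5975 ± 203 counts (0.38, SE 0.078, adjusted p = 0.0017) and passed after trend removal too (0.34, adjusted p = 0.0029), there also in 6 of 6 fits without 1 library. SELENOI, which makes phosphatidylethanolamine, was higher (0.62, adjusted p = 0.00051), and PTDSS2 (-0.29, adjusted p = 0.023) and PGS1 (-0.30, adjusted p = 0.026) were lower, and after trend removal these 3 did not pass.

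Of the 30 called genes named from these lists, 16 passed in limma without any 1 of the 6 libraries. The other 14 were RHOT2, ANO6, TMEM41B, WIPI2, ULK1, ATG4A, ATG7, MAP1LC3C, TOLLIP, FKBP8, PLIN3, PNPLA2, PTDSS2 and PGS1, all of which lost their call without knockout replicate 1. Leaving out knockout replicate 2 lost 12 of these calls, control replicate 3 lost 9, control replicate 2 lost 6, and knockout replicate 3 lost that of MAP1LC3C. After trend removal 14 of all listed genes were called, and 4 of them, VAPA, PITPNM3, CHPT1 and LPIN1, passed without any 1 library. UHRF1BP1L lost that call without control replicate 2 or any 1 knockout library, STARD4 without control replicate 3 or any 1 knockout library, and PITPNM2 without any 1 library but control replicate 1. The sign of all 14 was the same in each of these fits.

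**Figure D4:**
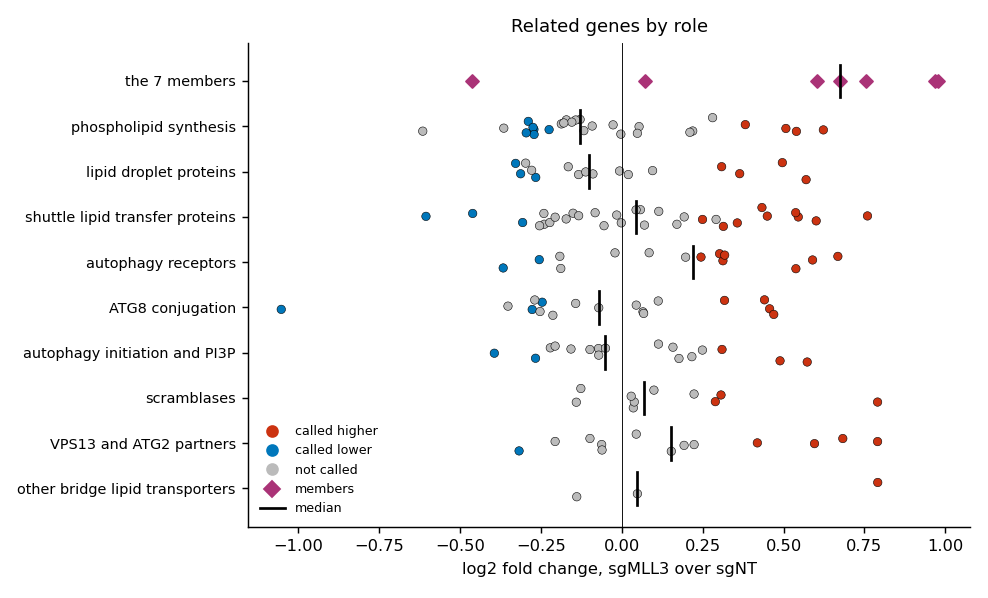
Log2 fold change of knockout over control of each tested gene, by role, as deposited; red and blue points were called higher or lower in limma, grey points were not, vertical bars are list medians, purple diamonds are the 7 members, and the vertical place within a row is arbitrary. List medians lie between -0.13 and 0.22, and the 7 members between -0.46 and 0.98.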

How the data were processed

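The authors deposited 1 table. The submitters' processing notes name the build GRCh38.p13, DESeq2 1.30.1, featureCounts 1.5.0, STAR 2.4.0 and FastQC. Annotation release, strand setting and read filters: not given in the sources used here. Per the file headers and values, its normalized count per library is a signal the authors made by dividing reads by a size factor per library; 100% of values were within 0.01 of a whole number of reads. The authors' log2 fold change, its standard error, the Wald statistic (a score), p-value and adjusted p-value stand beside it.

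Differences were tested on log2(value + 1) in limma 3.58.1 (eBayes with trend, R 4.3.3), over all 14618 genes with a mean of at least 10, which understates the change of low genes. Trend removal subtracted natural splines (5 terms each) of GC content and log2 length of the longest GENCODE 29 transcript, over 14598 genes. edgeR 4.0.16 and DESeq2 1.42.0 were run on recovered reads; other alternatives were the pseudocount, the filter, quantile normalization, the replicate block and each library left out. Lists were matched by symbol or gene ID (148 of 157 found). Scripts were tested on simulated data. The members and lists were chosen with earlier results of these data known. Named genes were KMT2C, the members, up to 2 genes per direction and list with the smallest adjusted p, the 3 other bridge transporters and the 5 genes most alike.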

Additional observations from a re-analysis of the deposited data

How the results depend on the processing

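Without trend removal, 5 members were called higher and 1 lower under every setting. In limma these were pseudocounts of 0.5 and 10, no filter, a filter of 50, quantile normalization, the replicate block and each library left out. The same counts were given by edgeR and DESeq2. Over these settings all genes called numbered 2143 to 6265, of 12454 to 15706 tested. Since the members were picked on this contrast, nothing is read from their counts. With trend removal the members called higher were 3, and 3 with the replicate block as well. Over all settings without 1 library, with or without the trend, they numbered 3 to 5 higher and 0 to 1 lower, all genes called 379 to 6168, and listed genes 1 to 42 higher and 2 to 38 lower. From 4859 as deposited, all genes called were 6265 with the block alone. They were 1463 after trend removal, and 1313 with trend removal and the block. Listed genes were 6 higher and 8 lower in both of these fits, and the block alone gave 47 higher and 32 lower. As deposited, deviations from the group means in libraries of the same number correlated with r of 0.066, 0.0063 and 0.13 for numbers 1 to 3. For control replicates 1 and 3 this was the highest r with any knockout library. Control replicate 2 correlated better with knockout replicate 1 (0.027). After trend removal r for libraries of the same number was 0.011, -0.0033 and 0.022 for numbers 1 to 3. The labels do not say whether equal numbers mark a pair. The sign of 6 values turned. VPS13D, at 0.071 as deposited, stood at -0.052 after trend removal, also with the block, at -0.018 with quantile normalization, and at -0.0072 without control replicate 3. After trend removal, also with the block, ANO6 stood at -0.022, TMEM41B at -0.058, UHRF1BP1 at -0.044 and KMT2C at -0.039. Without 1 library, with or without the trend, the ranges were -0.11 to 0.12 for VPS13D, -0.049 to 0.37 for ANO6, -0.14 to 0.39 for TMEM41B, -0.33 to 0.021 for FKBP8, -0.080 to 0.094 for UHRF1BP1 and -0.079 to 0.25 for KMT2C. The cause was not tested.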

Other observations

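6 of the listed genes were called only after trend removal, all with a negative log2 fold change there. They were singled out after their values were seen. Of all 144 listed genes tested, 5.56% were called lower after trend removal, beside 5.95% of all genes. VAPA and VAPB, which anchor VPS13 proteins on the endoplasmic reticulum, were read at 8433 ± 538 and 3425 ± 140 normalized counts in the control libraries and 9377 ± 587 and 3282 ± 179 in the knockout libraries (SD, n = 3 each). As deposited their log2 fold changes were 0.15 and -0.062 (limma adjusted p = 0.16 and 0.60), and after trend removal -0.30 and -0.26 (adjusted p = 0.0034 and 0.025). CHPT1, which makes phosphatidylcholine, stood at -0.46 after trend removal (adjusted p = 0.0039) and at -0.027 as deposited. FUNDC1, a mitochondrial autophagy receptor (-0.31), ATG3 (-0.25) and CDS2 (-0.20) had adjusted p = 0.024, 0.0496 and 0.043 after trend removal. As deposited, FUNDC1 stood at -0.021, ATG3 at 0.11 and CDS2 at -0.15. The autophagy receptors BNIP3 and TAX1BP1 were higher in both analyses, by 0.32 and 0.31 as deposited and 0.41 and 0.31 after trend removal (limma adjusted p = 0.0056 and 0.018 in the latter). Without 1 library, the calls after trend removal were kept in 6 of 6 fits for VAPA and CHPT1, 5 for BNIP3 (lost without knockout replicate 1), 3 for TAX1BP1 (lost without control replicate 3 or knockout replicate 1 or 2), 2 for FUNDC1 (lost without control replicate 3 or any 1 knockout library), and 1 each for VAPB, ATG3 and CDS2 (kept without control replicate 1), with the sign unchanged in all of these fits.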
